A study of Homo sapiens with 24 samples.

Results

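The 10 genes described here encode ligands and receptors of the transforming growth factor β (TGFβ) family. They are the ligand genes TGFB1, TGFB2, TGFB3 and INHBA, the type I receptor genes TGFBR1, ACVR1 and ACVR1B, the type II receptor gene TGFBR2, and the co-receptor genes TGFBR3 and ENG. The members were taken by name, and the estimated counts and TPM values of their 2 to 11 annotated Ensembl transcripts were summed. All 10 members were among the 17453 genes with enough counts to be tested, out of 34834 genes in the tables. RNA came from SK-MES-1, an established human cell line of lung squamous cell carcinoma (LUSC). The cells were depleted of growth factors for 3 hours and then left untreated or stimulated with 2 ng/ml recombinant TGFβ1. The methods of the authors name a medium without growth factors for the stimulation as well. Untreated and TGFβ libraries were made at 0, 8, 24 and 48 h, with 3 biological replicates in each of the 8 groups, which gives 24 libraries. The untreated cells had the same growth factor depletion, and all libraries come from a single cell line.

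Active TGFβ ligands are dimers that bring together type II and type I receptors, which are transmembrane serine/threonine kinases. The type II receptor phosphorylates the type I receptor, and the type I receptor phosphorylates Smad proteins that enter the nucleus and regulate transcription. TGFβ1, TGFβ2 and TGFβ3 signal mainly through the receptors encoded by TGFBR2 and TGFBR1, whereas activins, such as the homodimer encoded by INHBA, use activin type II receptors with the product of ACVR1B. The product of ACVR1, also named ALK2, is best known as a type I receptor for bone morphogenetic proteins. Betaglycan (TGFBR3) and endoglin (ENG) bind ligands and have no kinase domain. In epithelial tumor cells the pathway is known for both growth arrest and epithelial-to-mesenchymal transition.

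Each library held 46613589 to 77964234 estimated counts, so each member was covered by at least 110 counts in every library. SMAD7, PMEPA1, SKIL, TGFBI and JUNB, known direct response genes of the pathway, were higher in the TGFβ libraries at 8, 24 and 48 h. Of 11 squamous and epithelial markers 7 reached 1 TPM. KRT5, KRT6A, KRT14 and DSG3 did not, and the highest value among them was 0.102 TPM. Of 7 fibroblast markers 6 reached 1 TPM. Their summed TPM was 211 to 227 in the untreated libraries and 2111 to 2409 in the TGFβ libraries at 48 h, almost all from COL1A1 (158 and 2255 TPM). LUM, DCN and COL3A1 were lower in treated than in untreated cells at 48 h, PDGFRB was higher (5.28 and 21.1 TPM), and PDGFRA was at 10.7 TPM in both. The part of these markers in the results was not tested. Of 5 immune markers 2 (PTPRC and CD68) reached 1 TPM, with a sum of 10.5 to 12.9 TPM in untreated and 9.34 to 9.94 TPM in treated libraries at 48 h, while CD3E was at 0 and CD79A at or below 0.169 TPM. Of 5 endothelial markers 1 (PECAM1) did, with a sum of 3.18 to 3.52 and 3.59 to 4.90 TPM, and CDH5 was at or below 0.151 TPM. The share of mitochondrial transcripts was higher at later times in both arms. In the untreated libraries it was 9.36% to 10.3% at 0 h and 13.5% to 14.3% at 48 h. In the TGFβ libraries it was 10.4% to 10.7% at 0 h and 14.2% to 15.2% at 48 h. The TGFβ arm lay above the untreated arm without overlap at 0 and 24 h. The arms overlapped at 8 and 48 h. The part of this share in the results was not tested either. The second libraries of both arms at 0 and 24 h differed most from their replicates, so results were also computed without them. The file names carry 4 codes of unstated meaning, each for a single arm at either 0 and 8 h or 24 and 48 h. Arm and code therefore cannot be told apart within any time point. The changes from 0 to 8 h and from 24 to 48 h lie within the same code in each arm.

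Promoter sequences are printed for the members with the largest differences between the arms. Each line gives the 250 bases before a RefSeq transcription start in 5′ to 3′ direction of the gene (GRCh38.p14). Capitals mark CAGAC or its complement GTCTG, the core of the Smad-binding element. The TGFB1 window lies at chr19:41353923-41354172 on the minus strand, the TGFB2 window at chr1:218345086-218345335 on the plus strand, the INHBA window at chr7:41703091-41703340 on the minus strand, the ACVR1 window at chr2:157876331-157876580 on the minus strand and the TGFBR3 window at chr1:91886152-91886401 on the minus strand. The TGFB2 window is also annotated as exon of the antisense RNA gene TGFB2-AS1, and 4 bases of the TGFB1 window as exon of TMEM91.
TGFB1: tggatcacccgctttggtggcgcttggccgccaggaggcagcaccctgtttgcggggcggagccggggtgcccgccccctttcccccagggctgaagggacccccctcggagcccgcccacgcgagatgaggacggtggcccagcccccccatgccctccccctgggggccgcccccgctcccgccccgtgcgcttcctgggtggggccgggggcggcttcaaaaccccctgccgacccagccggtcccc
TGFB2: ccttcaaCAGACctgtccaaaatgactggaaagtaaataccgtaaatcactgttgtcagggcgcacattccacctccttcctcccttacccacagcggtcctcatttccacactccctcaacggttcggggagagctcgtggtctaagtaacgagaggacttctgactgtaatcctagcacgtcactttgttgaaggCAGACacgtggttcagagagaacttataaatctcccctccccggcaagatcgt
INHBA: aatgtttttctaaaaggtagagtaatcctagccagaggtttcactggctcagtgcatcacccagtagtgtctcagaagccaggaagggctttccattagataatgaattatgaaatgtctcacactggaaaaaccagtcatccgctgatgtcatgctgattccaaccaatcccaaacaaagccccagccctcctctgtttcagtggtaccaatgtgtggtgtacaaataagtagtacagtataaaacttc
ACVR1: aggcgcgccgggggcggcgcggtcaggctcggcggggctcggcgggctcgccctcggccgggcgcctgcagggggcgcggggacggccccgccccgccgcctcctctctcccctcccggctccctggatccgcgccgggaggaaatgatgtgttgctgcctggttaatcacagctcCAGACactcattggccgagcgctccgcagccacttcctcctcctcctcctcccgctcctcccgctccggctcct
TGFBR3: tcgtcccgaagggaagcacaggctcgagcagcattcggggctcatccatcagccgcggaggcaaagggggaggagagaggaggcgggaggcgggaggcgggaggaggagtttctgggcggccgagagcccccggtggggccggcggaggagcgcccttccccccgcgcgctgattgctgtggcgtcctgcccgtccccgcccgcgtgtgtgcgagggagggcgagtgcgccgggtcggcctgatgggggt
The ACVR1 window holds 1 such core, and the TGFB2 window holds 2. Those of TGFB1, INHBA and TGFBR3 hold 0. Searched in the same way, 38.0% of 35116 RefSeq promoter windows hold at least 1 copy on either strand. GGCGC, a GC-rich Smad-binding motif searched on both strands, occurs 7 times in the ACVR1 window, 2 times in that of TGFBR3, 1 time each in those of TGFB1 and TGFB2, and 0 times in that of INHBA. At least 1 copy of GGCGC is found in 44.5% of the windows. The AP-1 motif TGANTCA, present in 6.57% of the windows, and the E-box CACCTG, present in 17.5%, occur 0 times in the 5 windows shown. ACVR1 has further RefSeq starts, whose windows are not printed. The window of such a start, at chr2:157838631-157838880, holds 1 copy of TGANTCA.

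The first question was how the level of each gene compares with the others before stimulation. At 0 h TGFB1 had the highest level in the untreated cells with 60.6 TPM ± 4.41 (SD, n = 3), followed by TGFBR2 with 34.8 TPM ± 0.782 and TGFBR1 with 21.9 TPM ± 3.22. TPM is a level per transcript length, so genes can be compared on this scale. ACVR1 had 17.7 TPM ± 0.949 and TGFB2 15.6 TPM ± 2.49, and their libraries overlapped. Lower levels were found for TGFB3 with 10.2 TPM ± 1.38, ACVR1B with 8.06 TPM ± 0.205 and ENG with 7.67 TPM ± 0.760. ACVR1B and ENG could not be ordered beyond their spread. INHBA with 4.05 TPM ± 0.390 and TGFBR3 with 3.62 TPM ± 0.636 were lowest, and they overlapped as well. By 48 h the order had shifted in both arms. In untreated cells TGFB1, TGFBR2 and TGFB2 were at 64.1, 60.3 and 45.2 TPM, each apart from the next in all 3 libraries. In TGFβ-treated cells TGFB1 stood at 174 TPM, and TGFBR2 (46.2 TPM), TGFBR1 (41.4 TPM) and ACVR1 (37.4 TPM) followed.

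**Figure D1:**
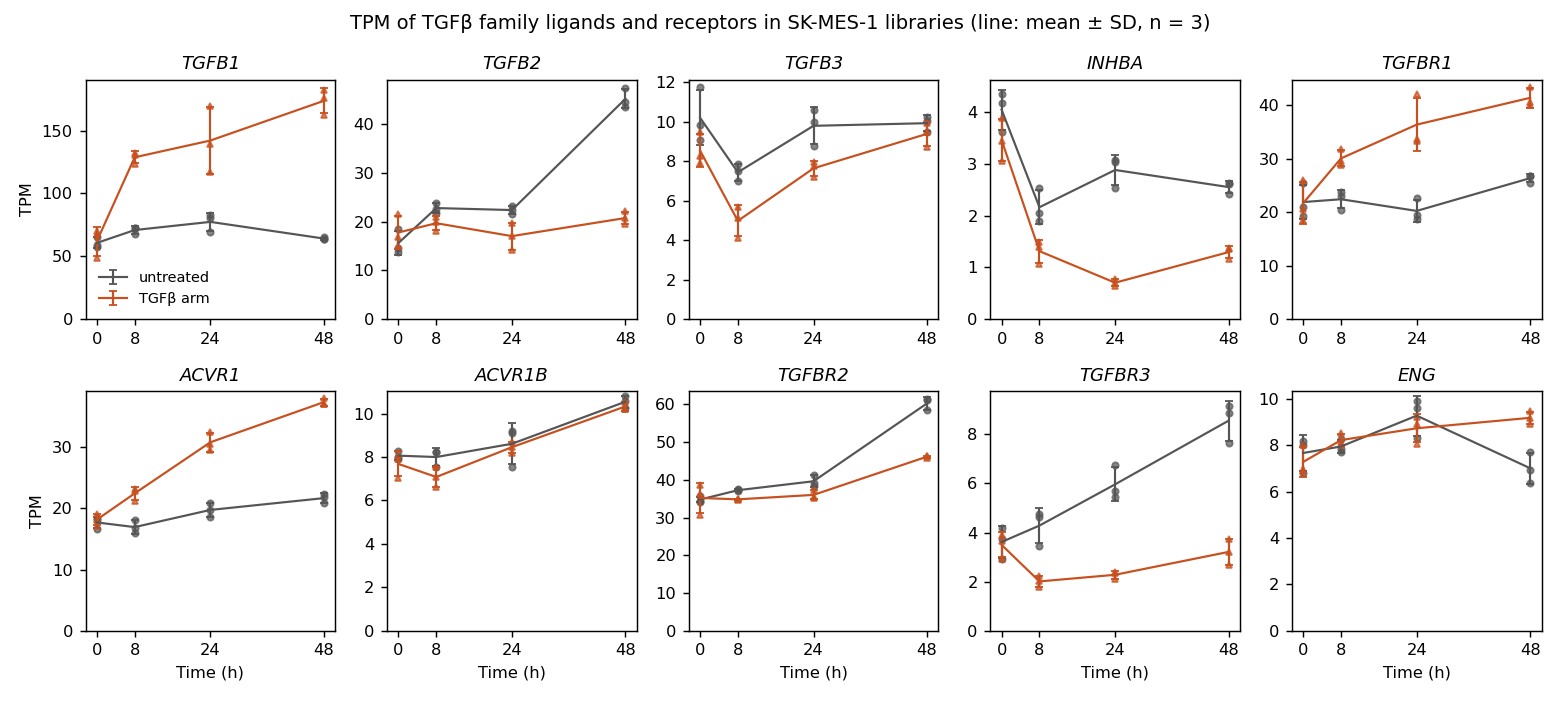
TPM of the 10 genes (y axis) against time in hours (x axis) in untreated libraries (grey circles) and libraries of the TGFβ arm (orange triangles). Each symbol is a library and lines join means ± SD (n = 3); TGFB1, TGFBR1 and ACVR1 lie higher and INHBA and TGFBR3 lower in the TGFβ arm at 8, 24 and 48 h.

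The arms were then compared at each time point with limma voom, with Benjamini-Hochberg adjustment over all tested genes and a threshold of 0.01. Differences are log2 differences of normalized counts, TGFβ arm minus untreated, with their SE. In bulk RNA, fewer cells of a type and less RNA per cell cannot be told apart. At 0 h 0 of 10 members passed, as did 0 of 17453 genes (0.0%), and 0 members against 800 genes (4.58%) had an unadjusted p under 0.05. The member differences at 0 h ran from -0.16 (INHBA) to 0.13 (TGFB2). At 8 h 6 of 10 members passed, against 16.4% of all genes. TGFB1, TGFBR1 and ACVR1 were higher, as were 9.12% of all genes, and TGFB3, INHBA and TGFBR3 were lower, as were 7.26%. TGFB2 joined the lower genes at 24 h, which makes 7 members against 29.3% of all genes, with 3 higher (15.4% of all genes) and 4 lower (13.8%). At 48 h 8 members passed, against 32.6% of all genes. TGFB1, TGFBR1, ACVR1 and ENG were higher (16.1% of all genes), and TGFB2, INHBA, TGFBR2 and TGFBR3 were lower (16.4%). The F-test over the 3 later time points was passed by 9 members, ACVR1B being the exception, and by 42.5% of all genes. The median of the average log2 difference over all tested genes was -0.02. No call at 8, 24 or 48 h was lost when any of the 24 libraries was left out.

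**Figure D2:**
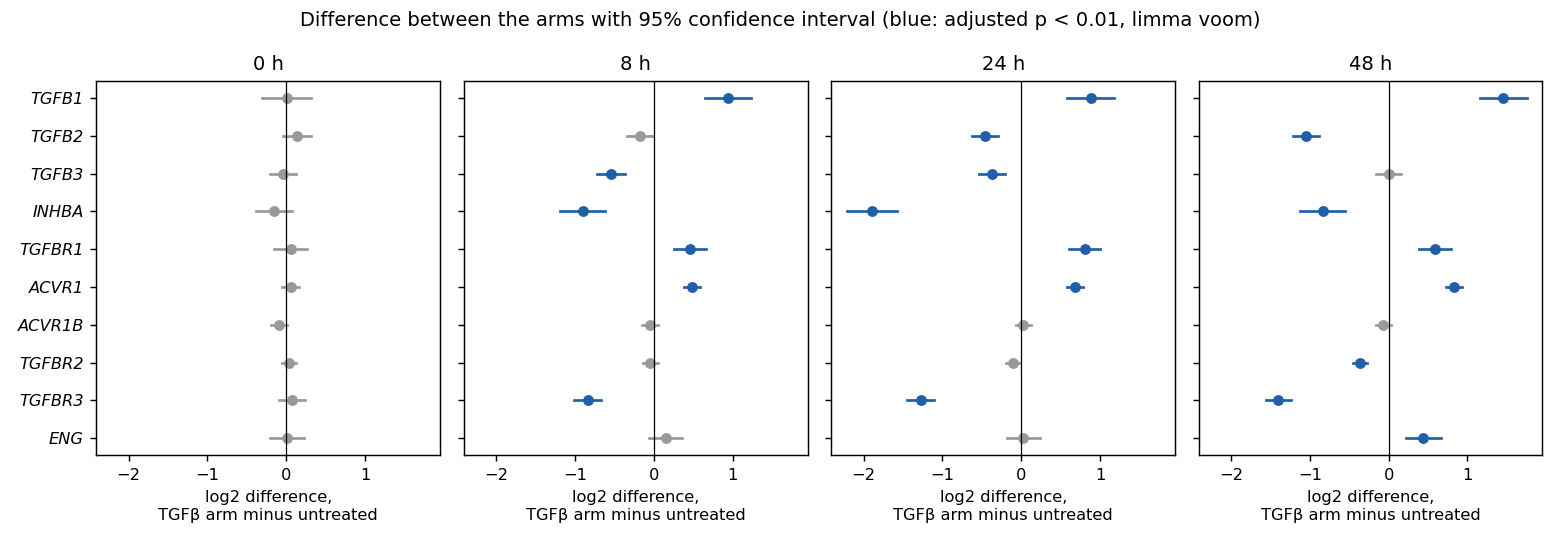
Log2 difference between the arms, TGFβ arm minus untreated (x axis), for the 10 genes (y axis) at 0, 8, 24 and 48 h. Points are limma voom estimates, bars are 95% confidence intervals and blue marks an adjusted p under 0.01; 6 genes are blue at 8 h, 7 genes at 24 h and 8 genes by 48 h, and 0 before stimulation.

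TGFB1, the gene of the ligand that was also added as protein, rose in TGFβ-treated cells. In untreated libraries it was at 65.6, 59.1 and 57.2 TPM at 0 h, at 67.5, 72.7 and 72.4 TPM at 8 h, at 82.8, 69.0 and 80.3 TPM at 24 h, and at 65.1, 63.7 and 63.6 TPM at 48 h. In the TGFβ arm it was at 70.0, 48.9 and 67.2 TPM at 0 h, at 132, 130 and 123 TPM at 8 h, at 170, 117 and 139 TPM at 24 h, and at 182, 176 and 163 TPM at 48 h. The arms overlapped at 0 h and were fully separated afterwards. Its log2 difference was 0.95 ± 0.14 at 8 h (1.93-fold, adjusted p = 2.71e-05, limma voom), 0.88 ± 0.14 at 24 h (1.84-fold, adjusted p = 3.43e-05) and 1.46 ± 0.14 at 48 h (2.74-fold, adjusted p = 3.09e-08). The second library of the TGFβ arm was the lowest at both 0 and 24 h, and without the second libraries the log2 difference at 24 h was 0.96. From 0 to 8 h TGFB1 rose 2.16-fold in the TGFβ arm (log2 1.11 ± 0.14, adjusted p = 2.07e-06), whereas the untreated arm changed by 0.17 ± 0.15 on the log2 scale (adjusted p = 0.400). HNRNPUL1, CCDC97, TMEM91 and ENSG00000255730 overlap the TGFB1 locus on the opposite strand but share 0 bases with the exons of the canonical TGFB1 transcript, and of these TMEM91 passed the F-test and was lower (log2 -0.90 at 24 h, F-test adjusted p = 1.02e-05).

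TGFB2 increased with time in untreated cells and much less in the TGFβ arm. Untreated libraries had 14.6, 18.5 and 13.8 TPM at 0 h, 23.9, 21.8 and 22.6 TPM at 8 h, 21.5, 23.2 and 22.4 TPM at 24 h, and 43.6, 47.4 and 44.6 TPM at 48 h. Libraries of the TGFβ arm had 14.9, 21.5 and 16.9 TPM at 0 h, 18.1, 19.9 and 21.0 TPM at 8 h, 17.2, 19.7 and 14.2 TPM at 24 h, and 22.1, 19.5 and 20.7 TPM at 48 h. All treated libraries lay below all untreated ones at 8, 24 and 48 h. The log2 difference of -0.17 ± 0.08 at 8 h did not pass (adjusted p = 0.129, limma voom), but did without the second libraries (adjusted p = 0.00507) and in a fit of the 8 h libraries alone (adjusted p = 0.000469). It was -0.46 ± 0.08 at 24 h (adjusted p = 0.000112) and -1.05 ± 0.08 at 48 h (0.483-fold, adjusted p = 4.25e-10). The call at 24 h was lost with limma-trend on log2(TPM + 1) (adjusted p = 0.0148), on log2(TPM + 0.1) (0.0146), with length-scaled counts (0.0120) and with the scaling to reference genes described for TGFBR2 (0.360). Between 24 and 48 h TGFB2 rose 1.93-fold in untreated cells (adjusted p = 3.11e-09) and 1.28-fold in the TGFβ arm (adjusted p = 0.00167). The exons of the canonical TGFB2 transcript share 701 bases with the antisense gene TGFB2-AS1, which was not analysed here, and whether counting used strand is not given in the sources used here.

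TGFB3 was lower in the TGFβ arm at 8 and 24 h, and its difference at 24 h depended on the processing. In the untreated arm its libraries were at 9.80, 9.05 and 11.7 TPM at 0 h, 7.84, 7.49 and 6.97 TPM at 8 h, 8.75, 10.6 and 9.997 TPM at 24 h, and 9.48, 10.05 and 10.2 TPM at 48 h. With TGFβ they were at 8.24, 7.88 and 9.49 TPM at 0 h, 4.13, 5.12 and 5.68 TPM at 8 h, 7.197, 7.96 and 7.75 TPM at 24 h, and 9.47, 9.93 and 8.73 TPM at 48 h. The arms were apart at 8 and 24 h and overlapped at 0 and 48 h. The log2 difference was -0.54 ± 0.09 at 8 h (adjusted p = 5.34e-05, limma voom) and -0.37 ± 0.08 at 24 h (adjusted p = 0.000812). At 48 h it was 0.003 with a 95% confidence interval from -0.16 to 0.16. TGFB3 fell from 0 to 8 h in both arms, by 0.36 ± 0.08 on the log2 scale in untreated cells (adjusted p = 0.00104) and by 0.86 ± 0.09 with TGFβ (adjusted p = 4.85e-08). Both the call at 24 h and the extra change from 0 to 8 h were lost on TPM and on length-scaled counts (adjusted p = 0.0178 to 0.0334 and 0.254 to 0.334). The 24 h call was also lost as a change from 0 h (adjusted p = 0.0392) and with the reference genes described for TGFBR2 (-0.02, adjusted p = 0.883), under which TGFB3 passed as higher at 48 h (0.35, adjusted p = 0.000707) with the median of all genes at 0.34. The change of the difference did not pass from 8 to 24 h (adjusted p = 0.400) or from 24 to 48 h (adjusted p = 0.0254). The antisense gene TGFB3-AS1, not analysed here, shares 163 bases with TGFB3 exons.

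INHBA, which encodes the βA subunit of activin A and of inhibin A, had the lowest mean level of the 4 ligand genes in every group, and it fell further with TGFβ. In untreated cells it was at 4.19, 4.35 and 3.61 TPM at 0 h, at 2.54, 1.90 and 2.05 TPM at 8 h, at 2.54, 3.07 and 3.04 TPM at 24 h, and at 2.43, 2.61 and 2.63 TPM at 48 h. In the TGFβ arm it was at 3.06, 3.44 and 3.89 TPM at 0 h, at 1.06, 1.40 and 1.49 TPM at 8 h, at 0.642, 0.776 and 0.695 TPM at 24 h, and at 1.16, 1.35 and 1.37 TPM at 48 h. The arms were fully separated at 8, 24 and 48 h, most widely at 24 h. Its log2 difference was -0.90 ± 0.14 at 8 h (adjusted p = 2.99e-05, limma voom), -1.89 ± 0.15 at 24 h (0.269-fold, adjusted p = 1.67e-09) and -0.83 ± 0.14 at 48 h (adjusted p = 3.46e-05). The 48 h call was lost with the reference genes (-0.49, adjusted p = 0.0105). The drop from 0 to 8 h took place in untreated cells too, where it was 0.541-fold (adjusted p = 2.78e-06), and reached 0.323-fold in the TGFβ arm (adjusted p = 2.32e-09).

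The composition of the 3 TGFB transcripts was compared in each library as a description, without a test. At 0 h TGFB1 made up 68.2% to 72.9% of the summed TPM of TGFB1, TGFB2 and TGFB3 in untreated cells and 62.5% to 75.1% in the TGFβ arm. At 48 h the share was 52.6% to 55.1% in untreated cells and 84.7% to 85.7% in the TGFβ arm. TGFB2 accounted for 36.9% to 39.1% at 48 h in untreated cells and for 9.49% to 10.8% with TGFβ. The summed level of the 3 genes also differed, with 118 to 121 TPM in untreated and 192 to 214 TPM in treated libraries at 48 h.

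**Figure D3:**
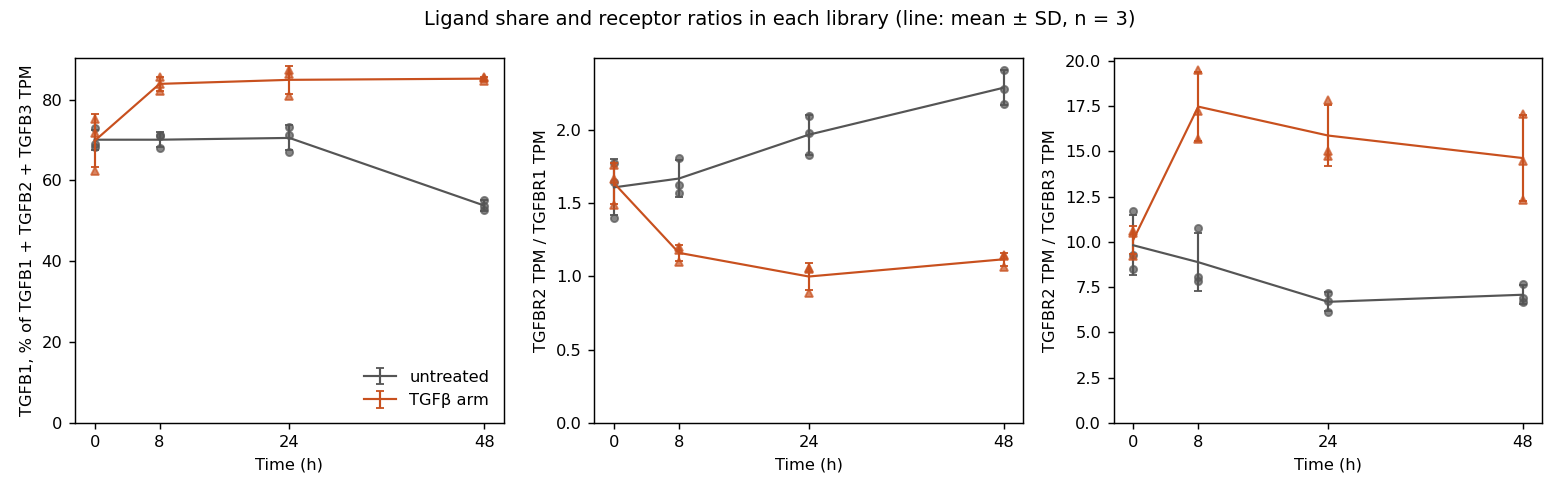
Share of TGFB1 in the summed TPM of TGFB1, TGFB2 and TGFB3 in percent (left), ratio of TGFBR2 TPM to TGFBR1 TPM (middle) and ratio of TGFBR2 TPM to TGFBR3 TPM (right) against time in hours, in untreated libraries (grey) and the TGFβ arm (orange). Symbols are libraries and lines join means ± SD (n = 3); at 48 h the TGFB1 share was 53.8% in untreated and 85.2% in treated cells.

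Among the type I receptors, TGFBR1 and ACVR1 rose with TGFβ and ACVR1B did not differ detectably. TGFBR1 encodes the kinase ALK5 that phosphorylates Smad2 and Smad3. Its untreated libraries were at 19.3, 25.5 and 20.9 TPM at 0 h, 23.1, 23.7 and 20.5 TPM at 8 h, 19.4, 22.7 and 18.7 TPM at 24 h, and 26.9, 25.4 and 26.8 TPM at 48 h. With TGFβ its libraries were at 18.5, 26.1 and 20.6 TPM at 0 h, 29.6, 28.9 and 31.8 TPM at 8 h, 33.7, 42.1 and 33.4 TPM at 24 h, and 40.7, 40.0 and 43.5 TPM at 48 h. Every treated library from 8 h on exceeded every untreated library of its time point. The log2 difference was 0.46 ± 0.10 at 8 h (adjusted p = 0.00103, limma voom), 0.80 ± 0.10 at 24 h (adjusted p = 7.31e-07) and 0.59 ± 0.10 at 48 h (adjusted p = 3.12e-05). At 8 h the call was lost on TPM (adjusted p = 0.0136 on log2(TPM + 1)) and as a change from 0 h (adjusted p = 0.0626). With the replicate block within time points the change from 0 h passed at 0.40 (adjusted p = 0.000104).

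ACVR1 climbed steadily in treated cells. It was at 16.6, 18.4 and 18.1 TPM at 0 h, 15.9, 18.1 and 16.8 TPM at 8 h, 18.6, 21.0 and 19.7 TPM at 24 h, and 21.8, 20.9 and 22.4 TPM at 48 h in untreated libraries. In the TGFβ arm the values were 17.2, 19.1 and 18.2 TPM at 0 h, 23.2, 21.3 and 22.9 TPM at 8 h, 30.5, 32.5 and 29.5 TPM at 24 h, and 37.1, 37.0 and 38.0 TPM at 48 h. Here the replicate spread was small and the arms separated from 8 h on. The log2 difference was 0.48 ± 0.05 at 8 h (adjusted p = 1.22e-07, limma voom), 0.68 ± 0.05 at 24 h (adjusted p = 2.01e-10) and 0.83 ± 0.05 at 48 h (1.77-fold, adjusted p = 5.39e-12). These 3 calls held under all alternatives run. ACVR1B, the activin receptor ALK4, ran from 7.53 to 10.8 TPM in untreated and from 6.63 to 10.5 TPM in treated libraries. At 8 h the treated libraries (7.09, 6.63 and 7.52 TPM) lay just below the untreated ones (7.53, 8.21 and 8.25 TPM). Its log2 difference was -0.04 at 8 h with a 95% confidence interval from -0.14 to 0.05. At 24 h it was 0.03 (-0.07 to 0.13), and at 48 h -0.07 (-0.17 to 0.03). The ACVR1B F-test passed with library totals in place of TMM factors, where the 48 h difference was -0.15, and with the reference genes, where it was 0.28. ACVR1B rose from 24 to 48 h in both arms, by 0.30 ± 0.05 on the log2 scale in untreated cells (adjusted p = 2.35e-05) and by 0.20 ± 0.05 with TGFβ (adjusted p = 0.00185). The ratio of ACVR1 to ACVR1B TPM was 1.97 to 2.13 in untreated and 3.52 to 3.73 in treated libraries at 48 h.

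TGFBR2, the type II receptor that binds TGFβ and activates TGFBR1, differed late. Untreated libraries held 34.3, 35.7 and 34.4 TPM at 0 h, 37.5, 37.2 and 37.1 TPM at 8 h, 38.4, 41.4 and 39.1 TPM at 24 h, and 58.4, 61.4 and 61.1 TPM at 48 h. Treated libraries held 30.8, 38.7 and 36.1 TPM at 0 h, 34.9, 34.7 and 34.9 TPM at 8 h, 35.4, 37.4 and 35.3 TPM at 24 h, and 46.3, 45.9 and 46.3 TPM at 48 h. Levels were apart in TPM from 8 h on, by little at 8 and 24 h. The log2 difference was -0.04 ± 0.04 at 8 h (adjusted p = 0.562, limma voom), -0.10 ± 0.04 at 24 h (adjusted p = 0.0656) and -0.37 ± 0.04 at 48 h (0.776-fold, adjusted p = 4.77e-07). Both arms rose from 24 to 48 h, 1.47-fold in untreated cells (adjusted p = 1.71e-09) and 1.22-fold with TGFβ (adjusted p = 2.13e-05). Scaled to the 4 qRT-PCR reference genes, under which the median of all genes was 0.34 at 48 h, TGFBR2 differed by -0.02 (adjusted p = 0.846), a call that was lost, and stayed below that median. The TGFBR2 F-test also missed the threshold with this scaling (adjusted p = 0.0218). At 24 h TGFBR2 passed as lower with library totals (-0.20, adjusted p = 0.00159) and upper-quartile factors (-0.16, adjusted p = 0.00515), and as higher with the reference genes (0.25, adjusted p = 0.00392), where the median of all genes was 0.34. The ratio of TGFBR2 to TGFBR1 TPM was 1.40 to 1.78 in untreated cells and 1.48 to 1.76 in the TGFβ arm at 0 h. By 48 h it was 2.17 to 2.41 in untreated and 1.06 to 1.15 in treated cells.

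TGFBR3 encodes betaglycan, a co-receptor that presents TGFβ2 to TGFBR2, and was the member with the lowest F-test p (adjusted p = 4.29e-14, limma voom). In untreated cells it was at 2.93, 4.19 and 3.72 TPM at 0 h, at 4.64, 3.47 and 4.74 TPM at 8 h, at 5.69, 6.74 and 5.45 TPM at 24 h, and at 7.63, 8.86 and 9.17 TPM at 48 h. In the TGFβ arm it was at 2.93, 3.65 and 3.92 TPM at 0 h, at 2.02, 1.78 and 2.22 TPM at 8 h, at 2.35, 2.10 and 2.39 TPM at 24 h, and at 3.20, 2.69 and 3.75 TPM at 48 h. No treated library reached an untreated one from 8 h on. The log2 difference was -0.84 ± 0.08 at 8 h (adjusted p = 8.31e-08, limma voom), -1.28 ± 0.08 at 24 h (adjusted p = 2.97e-11) and -1.40 ± 0.08 at 48 h (0.379-fold, adjusted p = 2.17e-12), and these calls held under all alternatives. From 0 to 8 h TGFBR3 fell to 0.528-fold with TGFβ (adjusted p = 1.37e-08), while the untreated change was -0.01 ± 0.08 on the log2 scale. Between 24 and 48 h it rose in both arms, by 0.50 ± 0.07 in untreated (adjusted p = 5.08e-06) and by 0.37 ± 0.09 in treated cells (adjusted p = 0.0018) on the log2 scale. TGFBR2 exceeded TGFBR3 by 6.66 to 7.65 times in untreated and by 12.3 to 17.1 times in treated libraries at 48 h in TPM.

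ENG, a co-receptor best known from endothelial cells, was at 8.20, 6.80 and 8.00 TPM at 0 h, 7.86, 8.28 and 7.70 TPM at 8 h, 9.92, 8.30 and 9.60 TPM at 24 h, and 7.70, 6.39 and 6.93 TPM at 48 h in untreated libraries. Treated libraries were at 6.96, 6.88 and 8.01 TPM at 0 h, 8.54, 7.99 and 8.13 TPM at 8 h, 9.23, 8.05 and 8.91 TPM at 24 h, and 9.15, 9.47 and 8.93 TPM at 48 h. The arms overlapped at 0, 8 and 24 h and were apart at 48 h. There the log2 difference was 0.44 ± 0.11 (1.36-fold, adjusted p = 0.00174, limma voom). ENG fell in untreated cells between 24 and 48 h, with a log2 change of -0.41 ± 0.10 (adjusted p = 0.0032), while the treated change was 0.01 ± 0.10. The ENG F-test (adjusted p = 0.00676) missed the threshold when any 1 of 11 of the 24 libraries was left out (each of the 6 at 48 h, untreated 0 h replicate 3, untreated 8 h replicates 1 and 3 and TGFβ 8 h replicates 1 and 2), with adjusted p = 0.0104 to 0.0271. As a change from 0 h the F-test (adjusted p = 0.0776) and the 48 h difference (adjusted p = 0.0321) missed it too. The F-test also missed it with library totals (adjusted p = 0.0261) and upper-quartile factors (0.0161). With no filter on counts (0.0130) or a filter at 1 CPM (0.0101) it did so as well. ENG exons share 313 bases with the opposite-strand gene ENSG00000225032, which was not analysed here, and the endothelial markers other than PECAM1 stayed under 1 TPM.

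Across the 10 members, the TPM of the arms did not overlap for 0 members at 0 h (6.99% of all genes), 9 at 8 h (47.4%), 8 at 24 h (40.3%) and 8 at 48 h (55.1%). TGFB1, TGFB2, INHBA, TGFBR1, ACVR1, TGFBR2 and TGFBR3 were apart in the same direction at all 3 later time points, 7 members against 18.8% of all genes. Since 0 and 8 h libraries of an arm share a file-name code, the change from 0 to 8 h was also compared between the arms. TGFB1 (0.94 ± 0.21, adjusted p = 0.00307) and ACVR1 (0.42 ± 0.07, adjusted p = 0.000173) changed upward with TGFβ relative to untreated cells in limma voom on the log2 scale, as did 5.05% of all genes. TGFB3 (-0.50 ± 0.12, adjusted p = 0.0052), INHBA (-0.75 ± 0.17, adjusted p = 0.00523) and TGFBR3 (-0.91 ± 0.11, adjusted p = 5.62e-06) changed downward, as did 2.84%. These are 5 members, against 7.88% of all genes. With the replicate block within time points TGFB2 and TGFBR1 were added, which makes 7, against 2433 of 17453 genes (1376 in the main fit). Leaving out single libraries left 3 to 5 members. Of these TGFB3 lost its call when any 1 of 8 libraries was left out (untreated 0 h replicates 2 and 3, untreated 8 h replicates 1 and 2, TGFβ 0 h replicates 1 and 3, TGFβ 8 h replicates 1 and 2, adjusted p = 0.0105 to 0.0207). INHBA lost it when any 1 of 6 was left out (untreated 0 h replicates 1 and 3, untreated 8 h replicate 1, TGFβ 0 h replicates 2 and 3, TGFβ 8 h replicate 1, adjusted p = 0.011 to 0.0252) and TGFB1 without the first untreated library at 0 h (0.86, adjusted p = 0.0123). The INHBA call was also lost with limma-trend on log2(TPM + 1) (-0.27, adjusted p = 0.261) and on log2(TPM + 0.1) (-0.46, adjusted p = 0.186). In limma voom it was lost with length-scaled counts (-0.46, adjusted p = 0.122) and with the reference genes (-0.64, adjusted p = 0.0393). The reference genes lost the TGFB3 call too (-0.40, adjusted p = 0.0313). As a change from 0 h, 6 members passed at 24 h (16.6% of all genes), namely TGFB1, TGFBR1 and ACVR1 upward (9.56%) and TGFB2, INHBA and TGFBR3 downward (7.02%). At 48 h 7 passed (20.7%), with the same 3 upward (10.5%) and TGFB2, INHBA, TGFBR2 and TGFBR3 downward (10.2%). In both arms the libraries at 24 and 48 h carry other codes than those at 0 h, so time and code cannot be told apart for these changes.

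Within each arm, the members were also followed over time. From 0 to 8 h 3 members passed in untreated cells (25.9% of all genes), TGFB2 upward (13.2%) and TGFB3 and INHBA downward (12.7%). In the TGFβ arm 6 passed (33.8%), TGFB1, TGFBR1 and ACVR1 upward (17.5%) and TGFB3, INHBA and TGFBR3 downward (16.3%). From 24 to 48 h 6 members passed in untreated cells (28.4%), of which TGFB2, TGFBR1, ACVR1B, TGFBR2 and TGFBR3 rose (14.7%) and ENG fell (13.6%). In the TGFβ arm 7 passed (25.8%), and TGFB2, TGFB3, INHBA, ACVR1, ACVR1B, TGFBR2 and TGFBR3 all rose (12.4%), with 0 members and 13.4% of all genes falling.

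The next comparison asked whether the difference between the arms itself changed with time. From 8 to 24 h it changed for 1 member, INHBA, by -0.99 ± 0.20 (adjusted p = 0.00223, limma voom), against 6.69% of all genes (2.54% downward and 4.14% upward). This call was lost without the third treated library at 8 h (-0.90, adjusted p = 0.0126) or the first treated library at 24 h (-0.90, adjusted p = 0.0106), and with the reference genes (-0.74, adjusted p = 0.0215). With the replicate block within time points 5 members passed, against 2567 of 17453 genes (1167 in the main fit). The added members were TGFB2 (-0.28, adjusted p = 0.00927), TGFBR1 (0.34, adjusted p = 0.000332), ACVR1 (0.20, adjusted p = 0.0099) and TGFBR3 (-0.43, adjusted p = 0.00295). From 24 to 48 h the difference of INHBA changed back by 1.06 ± 0.20 (adjusted p = 0.00104, limma voom). Those of TGFB2 and TGFBR2 moved further down, by -0.59 ± 0.11 (adjusted p = 0.000998) and -0.26 ± 0.06 (adjusted p = 0.0055). That makes 3 members, against 9.11% of all genes (3.5% upward and 5.61% downward). With the block within time points 6 members passed, against 3238 of 17453 genes (1590 in the main fit). TGFB1 (0.57, adjusted p = 0.00271), TGFBR1 (-0.22, adjusted p = 0.00695) and ENG (0.42, adjusted p = 0.000449) were added there. The TGFBR2 call was lost when any 1 of 9 libraries was left out (untreated 24 h replicates 1 and 3, untreated 48 h replicates 2 and 3, TGFβ 24 h replicates 2 and 3, and each TGFβ 48 h replicate), with adjusted p = 0.011 to 0.0194. Scaling by library totals (adjusted p = 0.0122) or the reference genes (0.0820), counts scaled by length (0.0124) and both fits on TPM (0.0497 with 1 added and 0.0579 with 0.1 added) lost it as well.

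The transcripts behind the gene sums are given as shares of the gene's TPM, with no test, since the split between similar transcripts is itself an estimate. A single canonical transcript carried most of TGFB1 (390 codons, group means of 91.5% to 95.5%), ACVR1 (509 codons, 83.3% to 91.7%) and ACVR1B (505 codons, 84.8% to 92.0%). For TGFB2 the canonical transcript (414 codons) held 54.5% to 62.2%, and a transcript of 1508 bases with no defined coding sequence held 31.7% to 38.1%. At 48 h the canonical transcript was at 26.4 TPM in untreated and 12.9 TPM in treated cells, and the transcript of 1508 bases at 15.2 and 6.59 TPM. Both TGFBR2 transcripts code for protein, with 567 and 592 codons. The shorter form had 69.5% at 0 h and 78.7% at 48 h in untreated cells, and 66.8% and 75.9% in the TGFβ arm. A TGFBR1 transcript with 507 codons had 45.2% to 54.8% of the gene, and the canonical one, with 503 codons, had 10.3% to 14.8%. A TGFBR1 transcript of 565 bases with 122 codons had at most 8.28% in untreated and 13.1% to 16.8% in treated libraries at 48 h. Its mean levels there were 1.26 and 6.35 TPM. Its shares at 0 h were apart the other way, with 7.55% to 12.4% in untreated and 1.53% to 4.89% in the TGFβ arm. At 8 and 24 h the libraries overlapped. INHBA has 2 main transcripts, of 6064 and 1632 bases and both with 426 codons, and the share of the shorter one at 8 h was 24.4% to 31.3% in untreated and 43.4% to 46.0% in treated libraries. The group means had the opposite order later. At 24 h they were 29.9% in untreated and 23.4% in treated cells, but the libraries overlapped (24.3% to 36.5% and 17.4% to 30.1%). At 48 h the ranges were 27.3% to 32.4% in untreated and 15.6% to 25.7% in treated libraries. The canonical transcripts of TGFBR3, TGFB3 and ENG had 58.1% to 75.7%, 41.7% to 50.9% and 56.9% to 75.3% of their genes.

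Other genes of the pathway were counted in fixed lists with the F-test over 8, 24 and 48 h and the sign of the average log2 difference, against 42.5% of all genes for the F-test and 40.7% for the test of the average (19.9% higher and 20.8% lower). Among 11 tested ligand genes of 14 listed, 4 were higher and 2 lower, with a median average log2 difference of 0.14. LEFTY1, an inhibitor of Nodal signaling, had 0.111 TPM ± 0.00935 (SD, n = 3) in untreated and 50.4 TPM ± 0.852 in treated cells at 48 h, with an average log2 difference of 6.39 ± 0.26 (adjusted p = 6.17e-14, F-test of limma voom). LEFTY2 was listed at 0 in the 3 untreated libraries and at 0.212 TPM ± 0.0675 with TGFβ at 48 h. INHBE, an activin subunit gene, was higher by 1.68 ± 0.18 on average, but its log2 difference was already 2.14 ± 0.49 at 0 h (adjusted p = 0.296, limma voom) and 0.18 ± 0.33 at 8 h (adjusted p = 0.764), at levels under 1 TPM. GDF15, a stress-induced family member, was at 46.5 TPM ± 6.80 in untreated cells at 0 h. It was lower in the TGFβ arm than in the untreated arm, with 564 TPM ± 33.8 in untreated and 89.3 TPM ± 3.801 in treated cells at 48 h.

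Of 9 tested further receptor and co-receptor genes, 2 were higher and 0 lower, with a median of 0.08. These were BMPR2, the type II receptor for bone morphogenetic proteins (average log2 difference 1.08 ± 0.05), and ACVR1C, the type I receptor ALK7 (1.58 ± 0.08). BMPR2 was at 13.1 TPM ± 0.236 in untreated and 32.8 TPM ± 0.201 in treated cells at 48 h. The activin type II receptor genes ACVR2A and ACVR2B had average log2 differences of -0.06 ± 0.15 and -0.08 ± 0.04 and did not pass.

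Genes of ligand latency and activation were mostly higher, 7 of 11 with 2 lower and a median of 0.93. These are differences between the arms and not changes from the start. The genes of the latent TGFβ binding proteins LTBP1 and LTBP2 were higher by 0.93 ± 0.02 and 1.99 ± 0.04 on average, and that of thrombospondin 1 (THBS1) by 1.36 ± 0.02. LTBP1 was at 98.1 TPM in untreated cells at 0 h, and at 41.1 TPM in untreated and 100.4 TPM in treated cells at 48 h. The integrin genes ITGAV and ITGB6, whose αvβ6 product activates latent TGFβ1 and TGFβ3, were higher by 1.16 ± 0.05 and 2.71 ± 0.07. ITGB6 was at 1.08 TPM ± 0.0633 in untreated and 10.2 TPM ± 0.618 in treated cells at 48 h. The integrin gene ITGB8 of the same list was lower, with an average log2 difference of -0.68 ± 0.05. ITGB8 was at 13.7 TPM in untreated cells at 0 h, and at 25.7 TPM in untreated and 17.9 TPM in treated cells at 48 h. Of 4 ligand antagonists 2 were higher and 2 lower, with a median of 1.75. FSTL3, which binds activin, was higher by 3.58 ± 0.08 and the proteoglycan gene BGN by 4.80 ± 0.13, whereas DCN, which encodes the TGFβ-binding proteoglycan decorin, was lower, with an average log2 difference of -1.73 ± 0.11. DCN was at 0.570 TPM in untreated cells at 0 h, and at 12.2 TPM in untreated and 1.47 TPM in treated cells at 48 h. FST, which encodes follistatin, counted as lower with an average of -0.08 ± 0.07, but was higher at 24 h (0.53) and lower at 48 h (-0.69). Among 10 receptor partners 4 were higher and 1 lower, with a median of 0.05. SMAD7, the inhibitory Smad that recruits ubiquitin ligases to type I receptors, was higher by 2.27 ± 0.03, and the ligase gene SMURF1 by 0.89 ± 0.03.

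**Figure D4:**
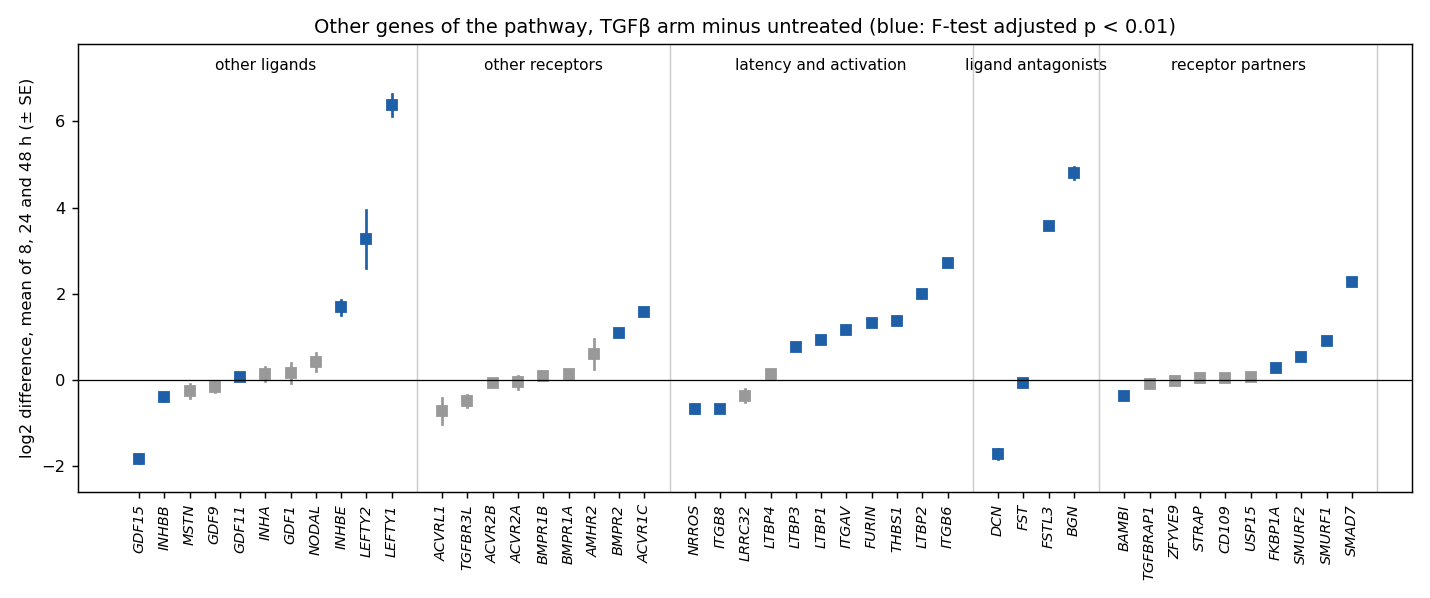
Average log2 difference over 8, 24 and 48 h between the arms, TGFβ arm minus untreated (y axis, ± SE), for the tested genes of 5 lists (x axis). Blue marks an F-test adjusted p under 0.01; LEFTY1 has 6.39 and GDF15 -1.83 among the other ligands.

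For the 3 members with the lowest F-test p, the protein-coding genes with the most similar course over the 8 group means were found among 13572 genes. The measure was the root mean square difference of centred log2(TPM + 0.5), and the 8 means share libraries and normalization across genes. Closest to TGFBR3, whose own root mean square deviation was 0.57, were COQ8A (0.15), CAMK2D (0.16) and TSPAN1 (0.16). For ACVR1, with its own deviation of 0.37, PLEKHA1 (0.06), TAS1R3 (0.09) and CALD1 (0.09) were closest. Nearest to INHBA, with a deviation of 0.61, were FAM110B (0.16), RUNX2 (0.18) and AHRR (0.18).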

How the data were processed

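SK-MES-1 RNA was sequenced by the authors on an Illumina instrument and quantified with kallisto 0.43.0 against GRCh38 transcripts of Ensembl release 79, as their methods and processing notes state. They deposited a table per library, with 173259 transcripts, estimated counts (not normalized), effective lengths and TPM values. Whether counting used strand and what the file-name codes mean is not given in the sources used here.

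Samples were grouped by the arm and time in their labels. Transcripts were assigned to genes with GENCODE release 44 (89.8% of transcripts, 94.8% to 95.2% of counts per library), and counts and TPM were summed per gene. Rounded sums were tested with limma 3.58.1 (voom, TMM factors from edgeR 4.0.16, R 4.3.3) in genes with at least 10 counts in at least 3 libraries, with 1 mean per group, at an adjusted p of 0.01. The fit was tested on simulated data first. Depth was 46613589 to 77964234 estimated counts per library. Levels are means ± SD. Effective lengths deposited by the authors, a length signal and not a level, entered only length-scaled counts. Sums used pandas 2.3.3 and numpy 2.4.6 under Python 3.11.15. Figures were drawn in matplotlib 3.10.9. Promoter sequences are from RefSeq (GRCh38.p14), found for 10 of 10 members.

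The members, lists and tests were chosen with earlier results of these data known. The tests within an arm were added after the levels were seen. The genes named are all members, opposite-strand genes that overlap them, up to 5 genes per pathway list past the F-test with at least 1.5-fold average difference, ordered by p, and the 3 nearest patterns of 3 members. ACVR2A, ACVR2B, FST, ITGB8 and the marker genes are named outside this rule, after their values were seen. Alternatives were edgeR's quasi-likelihood test, DESeq2 1.42.0, limma-trend on TPM after adding 1 or 0.1 and taking log2, counts scaled by length, 3 other scalings, 2 other filters, the change from 0 h, 2 replicate blocks, the libraries of a single time point, a threshold of 0.05, and each library left out in turn. Leaving out the second libraries of both arms at 0 and 24 h was added after seeing the data. Deviations of libraries with the same replicate number correlated between the arms at 0 h (0.46, 0.64 and 0.20) and 24 h (0.39, 0.66 and 0.35). They did not at 8 h (0.02, -0.08 and 0.10) or 48 h (0.01, 0.02 and 0.14). At 0 h the third TGFβ library correlated best with the first untreated library. The numbers come from letters in the labels, which state no pairing, so whether they pair the samples is not known. A gene of the fixed lists is not reported here.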

Additional observations from a re-analysis of the deposited data

Results flagged for a closer look

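The difference between the arms changed with time for 3 of the 10 members by a direct test of the change (limma voom, adjusted p under 0.01). From 8 to 24 h 1 member passed, against 6.69% of all genes. From 24 to 48 h 3 members passed, against 9.11% of all genes. For INHBA the difference changed by -0.99 from 8 to 24 h and by 1.06 from 24 to 48 h on the log2 scale. For TGFB2 it changed by -0.59 and for TGFBR2 by -0.26 from 24 to 48 h. The TGFBR2 call was lost in 14 of 38 alternative settings, with adjusted p up to 0.0820, and the INHBA call from 8 to 24 h in 3 of 38. In untreated cells TGFB2 and TGFBR2 rose between 24 and 48 h by 0.95 and 0.55, and with TGFβ by 0.36 and 0.29. INHBA rose by 0.85 in the TGFβ arm and changed by -0.21 in untreated cells over the same time (adjusted p = 0.169). The libraries at 8 h carry other file-name codes than those at 24 h in both arms, so time and code cannot be told apart for the change from 8 to 24 h.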

How the results depend on the processing

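Of 1998 values for single genes under the alternatives, 1888 kept their direction and their side of the threshold, 50 passed it no longer, 29 passed it newly and 31 turned direction. The counts of members past the test at 0, 8, 24 and 48 h and in the F-test stayed within 1.5 times of their value under every alternative run. Over all genes, the replicate block within time points called 4530 of 17453 at 8 h, against 2859 in the main fit. In the F-test it called 10000, against 7410. With single libraries left out in turn 8 to 9 members passed the F-test, and 6, 7 and 8 members passed at 8, 24 and 48 h.

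For the change from 0 to 8 h 5 members passed in the main fit and 3 to 5 without single libraries. With limma-trend on log2(TPM + 1) or log2(TPM + 0.1), length-scaled counts and the 4 reference genes, 3 members passed. Over all genes these settings called 989, 965, 1034 and 1541 in that order, against 1376 in the main fit. The change of the difference from 8 to 24 h was passed by 2 members with DESeq2, the reference genes, a filter at 1 CPM or a threshold of 0.05. Over all genes these settings called 1572, 3125, 1200 (of 14390) and 2017 in that order, against 1167 in the main fit. Without the second libraries at 0 and 24 h 3 members passed (1981 of 17372 genes). The replicate block within time points gave 5 (2567 of 17453 genes). Without single libraries 0 to 2 members passed (0 without the third treated library at 8 h). The change from 24 to 48 h was passed by 5 members without those second libraries (2607 of 17372 genes). With the replicate block within time points 6 members passed (3238 of 17453 genes, against 1590 in the main fit). Without single libraries 2 to 4 members passed. The replicate block over all groups changed no call, and the block within time points changed no call at 8, 24 or 48 h.

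The median average difference of all genes was -0.02 in the main fit, 0.25 with the reference genes (0.34 at 24 and at 48 h) and -0.11 with library totals. Under the reference genes TGFBR2 turned to 0.0492 at 8 h, 0.246 at 24 h and 0.0929 on average, and ACVR1B to 0.0468 at 8 h, 0.280 at 48 h and 0.234 on average. With that scaling ACVR1B (0.377) and ENG (0.374) at 24 h and TGFB3 (0.352) at 48 h passed as higher. As a change from 0 h ACVR1B was 0.0422 at 8 h and 0.0167 at 48 h. Given in the order library totals, upper-quartile factors, log2(TPM + 1) and log2(TPM + 0.1), ACVR1B at 24 h turned to -0.0684, -0.0292, -0.0192 and -0.0207, ENG at 24 h to -0.0718, -0.0328, -0.0771 and -0.0846, and TGFB3 at 48 h to -0.0795, -0.0376, -0.0742 and -0.0812. Length-scaled counts gave -0.0492 for ENG and -0.0494 for TGFB3, and the filter at 1 CPM gave -0.0231 for TGFB3. Without single libraries ACVR1B at 24 h ranged from -0.0141 to 0.0731, ENG at 24 h from -0.0872 to 0.127 and TGFB3 at 48 h from -0.0459 to 0.0594. The cause was not tested beyond the scaling itself. INHBA, with 110 to 627 counts, and TGFB3, with 207 to 560, are limited most by depth, and with 3 libraries per group the p-values measure the spread between these cultures.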
